A study of Mus musculus with 12 samples.

Results

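The homeostatic microglia identity genes described here are P2ry12, P2ry13, Gpr34, Cx3cr1, Tmem119, Siglech, Olfml3, Sall1 and Aif1. They were chosen by symbol, and all 9 were found among the 15397 genes measured. Striatal RNA of C57BL/6 mice was sequenced in 4 groups of 3, which were wild type on vehicle, wild type on PLX3397, R6/2 on vehicle and R6/2 on PLX3397. PLX3397, an inhibitor of the receptor tyrosine kinase CSF1R, was given in chow at 275 ppm between 7 and 11 weeks of age. R6/2 mice, a model of Huntington's disease, carry a transgene for a fragment of human huntingtin with an expanded CAG repeat under the human huntingtin promoter; wild-type mice carry none. All cells carry the transgene, so the groups do not separate an effect in microglia from one in neurons. The labels name no litter, sex or repeat length, and they do not say that 1 animal gave each library beyond the stated 3 mice per group.

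Microglia are the resident macrophages of the brain and depend on CSF1R signalling to survive. In the undisturbed brain they express a set of genes that blood macrophages express weakly or not at all, and TGF-beta signalling and the transcription factors PU.1 and SALL1 are known to keep that set on. P2ry12, P2ry13 and Gpr34 encode receptors of the P2Y12-like family, P2ry12 being the ADP receptor through which microglial processes move to injury. Cx3cr1 encodes the receptor for the neuronal chemokine fractalkine, and Tmem119 a membrane protein used as a marker of resident microglia. Siglech encodes a receptor of the Siglec family and Olfml3 a secreted olfactomedin-like glycoprotein. Sall1 encodes a zinc-finger transcription factor that also acts in kidney development. Aif1 encodes the calcium-binding protein IBA1, whose antibody is the usual stain for microglia and other macrophages.

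All 9 genes are protein coding. On GRCm38, P2ry12 (NCBI gene 70839) lies on chromosome 3 from 59216271 to 59262985, P2ry13 (74191) beside it from 59207892 to 59210882, and Olfml3 (99543) on the same chromosome from 103735394 to 103738001, all on the minus strand. Gpr34 (23890) lies on chromosome X from 13622650 to 13640859 on the plus strand and Siglech (233274) on chromosome 7 from 55768154 to 55779448 on the plus strand. On the minus strand are Cx3cr1 (13051) on chromosome 9 from 120048683 to 120068296, Tmem119 (231633) on chromosome 5 from 113793729 to 113800396, Sall1 (58198) on chromosome 8 from 89027242 to 89044162 and Aif1 (11629) on chromosome 17 from 35170986 to 35176083. P2ry12 and P2ry13 lie inside Med12l and Gpr34 inside Cask, each on the opposite strand from its host, and the counting strand is not given in the sources used here. The exons of P2ry12 and Med12l share 9 bases, and those of P2ry13 and Med12l and of Gpr34 and Cask share 0. Cx3cr1 overlaps other genes on both strands and shares 78 exon bases with Gm33858, an antisense gene that was not among those measured.

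The 250 bases before the start are shown for 2 genes whose RNA was nearly all lost on PLX3397, P2ry12 and P2ry13, and for Sall1, which kept much of it (RefSeq, GRCm38, minus strand, 5′ to 3′). Capitals mark GAGGAA, a core of PU.1 sites, read on both strands (TTCCTC on the other strand). For Sall1 the first of 3 annotated starts is shown.
P2ry12, chr3:59262986-59263235: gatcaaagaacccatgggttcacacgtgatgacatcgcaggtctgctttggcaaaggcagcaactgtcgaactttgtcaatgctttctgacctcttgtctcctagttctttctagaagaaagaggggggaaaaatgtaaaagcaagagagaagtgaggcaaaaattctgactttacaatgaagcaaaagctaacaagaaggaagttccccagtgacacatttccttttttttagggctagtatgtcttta
P2ry13, chr3:59210883-59211132: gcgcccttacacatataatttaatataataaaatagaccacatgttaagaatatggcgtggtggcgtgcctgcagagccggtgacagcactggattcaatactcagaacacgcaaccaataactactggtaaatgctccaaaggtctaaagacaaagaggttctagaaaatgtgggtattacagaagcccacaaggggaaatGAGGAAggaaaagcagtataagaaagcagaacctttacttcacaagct
Sall1, chr8:89044163-89044412: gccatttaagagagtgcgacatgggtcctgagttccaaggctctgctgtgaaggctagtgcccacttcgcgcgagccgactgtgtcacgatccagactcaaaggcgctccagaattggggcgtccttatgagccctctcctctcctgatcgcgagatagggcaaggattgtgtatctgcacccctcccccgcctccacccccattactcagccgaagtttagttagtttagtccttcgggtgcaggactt

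The table of promoters held 9 windows for 7 of the genes, and 2 of the 9 windows held GAGGAA, those of P2ry13 and Aif1. The table's start of Aif1 lies inside the span given above, and so does this match, so its window is not shown. Of all 32851 windows of this length in the table, 23.3% held it. Those of P2ry12 and Sall1 shown here do not hold these letters. A match is a description of the sequence only.

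Recovered reads came to 18902120 to 24293208 per library. All 9 striatal projection neuron markers of the fixed list were measured, with a summed level of 2685 to 7707 CPM (reads scaled to the library's effective size, its total times a scaling factor recovered from the deposited values) in wild type on vehicle and 570 to 1415 CPM in R6/2 on vehicle. Libraries also differed in RNA of neighbouring tissue. Summed choroid plexus markers reached 1039 CPM in 1 wild-type PLX3397 library and 4536 CPM in 1 R6/2 vehicle library, against 44.7 to 111 CPM in the other 10. Slc17a7, a transporter of cortical excitatory neurons, had 168 and 196 reads in R6/2 PLX3397 libraries 1 and 2 and 11902 in library 3. Csf1r, which encodes the target of the drug, was left at 2.05% ± 1.44 (SD, n = 3) of its vehicle mean in wild type and 1.08% ± 0.956 (SD, n = 3) in R6/2, where it came to 0.536% without library 3.

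PLX3397 lowered 8 of the 9 identity genes in wild type and 7 of 9 in R6/2 at an adjusted p under 0.05, and raised none. Over all genes tested 14.2% were called in wild type, 8.3% lower and 5.93% higher, and 1.1% in R6/2, 1.04% lower and 0.0585% higher (limma, Benjamini-Hochberg over 15397 genes). The median log2 change of the 9 genes was -5.55 in wild type and -5.50 in R6/2, beside 0.00 and -0.01 over all genes. For all but Aif1, each PLX3397 library lay below each vehicle library in both genotypes, which held for 17.3% of all genes in wild type and 11.9% in R6/2. In bulk tissue, fewer cells of a type and less RNA per cell cannot be told apart. The members fall into 6 genes that were left at under 5% of the vehicle mean in both genotypes, Olfml3 at an intermediate level, and Sall1 and Aif1, which kept most or much of their RNA.

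**Figure D1:**
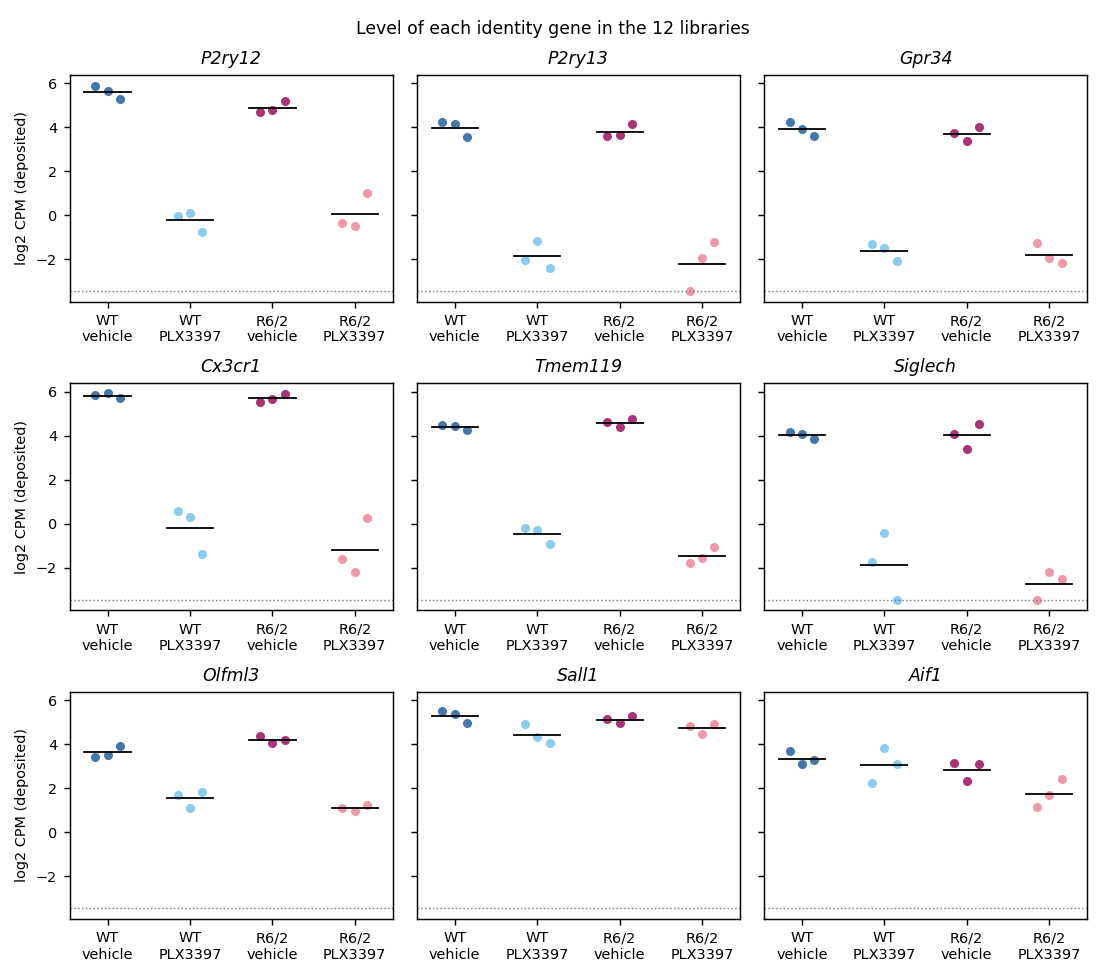
Deposited log2 CPM of each gene in the 12 libraries (points), with the mean of 3 libraries as a line; the dotted line is the value a library has at 0 reads. P2ry12, P2ry13, Gpr34, Cx3cr1, Tmem119 and Siglech drop by 4.83 to 6.88 log2 units on PLX3397, Olfml3 by 2.09 and 3.10, and the PLX3397 and vehicle libraries of Aif1 overlap.

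Among the purinergic receptors, P2ry12 stood at 58.4, 49.96 and 38.5 CPM in the 3 wild-type vehicle libraries and at 0.877, 1.00 and 0.494 CPM in the 3 on PLX3397. In R6/2 it stood at 26.0, 27.6 and 36.1 CPM on vehicle and at 0.689, 0.631 and 1.93 CPM on PLX3397. The groups lay far apart in both genotypes, and R6/2 PLX3397 library 3 was the highest of the treated libraries. On PLX3397 the gene was left at 1.61% ± 0.539 (SD, n = 3; 50 reads in the 3 libraries together) in wild type and 3.62% ± 2.45 (77 reads) in R6/2, where it came to 2.21% without library 3. The log2 change was -5.83 ± 0.39 (SE; limma adjusted p = 3.25e-05) in wild type and -4.83 ± 0.39 (adjusted p = 0.000103) in R6/2. The deposited values carry a prior of about 2 reads, which draws the log2 change of a gene this close to 0 reads toward 0. The log2 change also averages logs where the share left averages CPM, so these figures need not match.

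P2ry13, the neighbouring ADP receptor gene, fell from 18.7, 17.9 and 11.8 CPM to 0.155, 0.348 and 0.0987 CPM in wild type. In R6/2 it fell from 12.03, 12.5 and 17.9 CPM to 0, 0.168 and 0.343 CPM. The treated libraries held between 0 and 8 reads of it, and a count of 0 in R6/2 PLX3397 library 1 allows up to 0.122 CPM (3 reads), or 0.862% of the vehicle mean. The 1.24% ± 0.809 left in wild type came to 0.786% without PLX3397 library 2, and the 1.21% ± 1.21 left in R6/2 to 0.596% without library 3 (SD, n = 3). Gpr34, a receptor for lysophosphatidylserine, fell from 18.8, 15.1 and 12.05 to 0.310, 0.261 and 0.148 CPM in wild type, which left 1.56% ± 0.541 (SD, n = 3). Its fall in R6/2 was from 13.2, 10.2 and 16.1 to 0.324, 0.168 and 0.129 CPM, which left 1.57% ± 0.786. The share of Gpr34 left was thus nearly the same in both genotypes, on 15 reads in each. The log2 changes of P2ry13 and Gpr34 ran from -5.50 to -6.01 in both genotypes, with adjusted p of 1.58e-05 to 0.000209 (limma).

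The genes that enclose these receptors were left at higher shares. Med12l, a Mediator subunit gene, was left at 31.2% in wild type, where it was called lower (log2 change -1.73 ± 0.28, limma adjusted p = 0.00586), and 178% in R6/2, and Cask, a scaffold kinase gene, at 69.0% and 105%. How many reads of P2ry12, P2ry13, Gpr34 or Cx3cr1 came from the opposite strand was not tested.

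Cx3cr1 stood at 57.4, 61.1 and 52.3 CPM in wild type on vehicle and at 1.39, 1.13 and 0.296 CPM on PLX3397, so 1.65% ± 1.01 (SD, n = 3) was left. In R6/2 it stood at 46.5, 50.8 and 59.7 CPM on vehicle and at 0.243, 0.126 and 1.11 CPM on PLX3397, with 0.945% ± 1.03 left. The R6/2 figure rested on library 3, which held 26 of the 35 reads, and was 0.353% without it. The log2 change was -6.00 ± 0.60 (limma adjusted p = 0.000431) in wild type and -6.88 ± 0.60 (adjusted p = 0.000165) in R6/2. Its ligand gene Cx3cl1, expressed by neurons, was called in neither genotype, with a log2 change of 0.66 in wild type (limma adjusted p = 0.0747) and -0.36 in R6/2 (0.502), and the difference between them was -1.02 (interaction adjusted p = 0.0533).

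Of the surface proteins, Tmem119 stood at 22.5, 22.1 and 19.1 CPM in wild type on vehicle and at 0.774, 0.739 and 0.444 CPM on PLX3397. In R6/2 the values were 24.4, 20.8 and 27.1 CPM on vehicle and 0.203, 0.252 and 0.386 CPM on PLX3397. That left 3.07% ± 0.853 (SD, n = 3, 41 reads) in wild type and 1.16% ± 0.393 (SD, n = 3, 20 reads) in R6/2. The log2 change was -4.87 ± 0.26 (limma adjusted p = 1.49e-05) in wild type and -6.05 ± 0.26 (adjusted p = 1.43e-06) in R6/2. Siglech fell from 17.7, 17.1 and 14.2 to 0.206, 0.652 and 0 CPM in wild type, and from 17.1, 10.4 and 23.5 to 0, 0.126 and 0.0857 CPM in R6/2. Of its 19 treated wild-type reads, 15 came from library 2. The 1.75% ± 2.04 left came to 0.631% without that library and to 2.63% without library 3. In R6/2, where 5 reads remained in all, 0.415% ± 0.379 was left, or 0.252% without library 2. The counts of 0 allow up to 0.906% of the vehicle mean in wild-type library 3 and 0.715% in R6/2 library 1 (3 reads each). The counting intervals of these 6 genes (exact Poisson, 95%, counting error only) overlapped for most pairs, so that most of their order was not detectable at this depth. In wild type the interval of Tmem119 (2.21% to 4.18%) lay above those of P2ry12 (1.21% to 2.15%), P2ry13 (0.685% to 2.20%) and Cx3cr1 (1.26% to 2.13%). In R6/2 that of P2ry12 (2.83% to 4.48%) lay above those of the other 5, with the part of library 3 given above. These intervals leave out the spread between mice, and the orders within a genotype were not tested between mice. Ratios to P2ry12 were tested between mice as an average over the genotypes, as given below. By library, the lowest wild-type share of Tmem119 was 2.09%, beside highest shares of 2.04% (P2ry12), 2.16% (P2ry13) and 2.45% (Cx3cr1). The lowest R6/2 share of P2ry12 was 2.11%, beside highest shares of 2.46% (Gpr34), 2.43% (P2ry13), 2.13% (Cx3cr1), 1.60% (Tmem119) and 0.742% (Siglech).

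**Figure D2:**
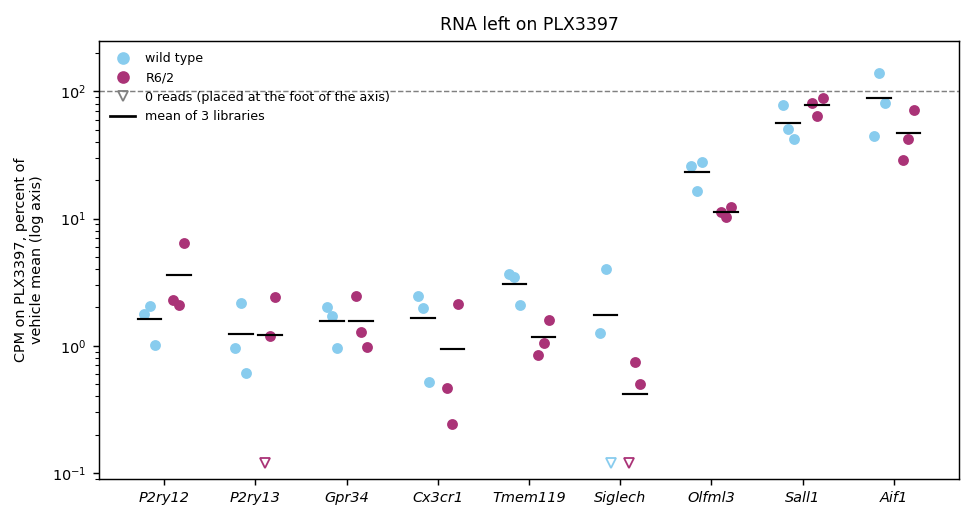
CPM in each PLX3397 library as a percent of the vehicle mean of its genotype (log axis; points are libraries, lines the mean of 3), with the dashed line at 100 percent and open triangles for libraries with 0 reads. The 6 genes on the left have means of 0.415% to 3.62%, Olfml3 of 23.3% and 11.2%, Sall1 of 56.7% and 77.4% and Aif1 of 88.1% and 47.3%.

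Olfml3 kept more RNA than these 6. It stood at 10.8, 11.5 and 15.1 CPM in wild type on vehicle and at 3.20, 2.04 and 3.46 CPM on PLX3397. In R6/2 it stood at 20.6, 16.4 and 18.4 CPM on vehicle and at 2.07, 1.89 and 2.27 CPM on PLX3397. The groups did not overlap in either genotype, and 23.3% ± 6.04 (SD, n = 3; counting interval 19.7% to 26.5%) was left in wild type and 11.2% ± 1.03 (9.51% to 13.2%) in R6/2. Olfml3 fell by 2.09 ± 0.23 on the log2 scale in wild type (limma adjusted p = 0.000626) and by 3.10 ± 0.23 in R6/2 (adjusted p = 5.57e-05). Beside the RNA left, the summed markers of pericytes and fibroblasts (10 of 10 measured) ranged over 119 to 164 CPM in wild type on vehicle, 149 to 218 CPM on PLX3397, 169 to 264 CPM in R6/2 on vehicle and 160 to 195 CPM on PLX3397; their part in the Olfml3 reads was not tested.

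Sall1 kept the larger part of its RNA. It stood at 45.3, 41.5 and 31.7 CPM in wild type on vehicle and at 30.6, 19.99 and 16.6 CPM on PLX3397, and 56.7% ± 18.5 (SD, n = 3) was left. In R6/2 it stood at 35.2, 31.0 and 38.6 CPM on vehicle and at 28.1, 22.3 and 30.7 CPM on PLX3397, with 77.4% ± 12.2 left. The groups did not overlap in either genotype, though the gap was small: the highest treated library lay at 30.6 CPM beside a lowest vehicle library of 31.7 CPM in wild type, and at 30.7 beside 31.0 CPM in R6/2. In wild type Sall1 fell by 0.85 ± 0.23 on the log2 scale (limma adjusted p = 0.0346), and in R6/2 its change of -0.37 ± 0.23 was not called (adjusted p = 0.484). The wild-type call was lost under 6 of 22 alternatives, among them leaving out vehicle library 1 (adjusted p = 0.134) or 2 (0.118), leaving out PLX3397 library 2 (0.0834) or 3 (0.0867), and a fit of the 2 groups alone (0.107).

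Aif1, the IBA1 gene, showed no called change on PLX3397. It stood at 12.9, 8.51 and 9.57 CPM in wild type on vehicle and at 4.59, 14.3 and 8.44 CPM on PLX3397, so that 88.1% ± 47.3 (SD, n = 3) was left. In R6/2 it stood at 8.81, 4.96 and 8.41 CPM on vehicle and at 2.15, 3.11 and 5.23 CPM on PLX3397, with 47.3% ± 21.3 left. Treated and vehicle libraries overlapped in both genotypes, and treated wild-type library 2 was the highest of all 12. The log2 change was -0.30 ± 0.43 (limma adjusted p = 0.646) in wild type and -1.11 ± 0.43 (adjusted p = 0.323, unadjusted p = 0.0245) in R6/2, and neither was called under any of 22 alternatives. In wild type the change was 0.11 without PLX3397 library 1, the library high in choroid plexus genes. Markers of the other macrophages that could hold Aif1 RNA gave few values. Of 11 border macrophage genes 4 were measured, with a sum of 18.8 to 27.1 CPM in wild type on vehicle and 5.78 to 11.7 CPM on PLX3397, and 15.5 to 28.03 CPM and 3.57 to 14.9 CPM in R6/2. Of these 4, 3 were called lower in wild type (Mrc1, Stab1 and F13a1) and 2 in R6/2 (Mrc1 and Stab1). In wild type and R6/2, Mrc1 was left at 3.48% and 1.86%, Stab1 at 24.9% and 25.2%, F13a1 at 3.31% and 8.63% and Cd163 at 66.1% and 163%. Stab1 came to 15.9% without wild-type PLX3397 library 1, all 3 treated wild-type reads of F13a1 lay in library 2, and Cd163 in R6/2 came to 73.6% without PLX3397 library 2. Their part in the Aif1 reads was not tested. None of 14 blood leukocyte genes was among those measured, so these cells were not analysed here.

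To ask whether the 9 genes were lost to the same degree, the reads of each were divided by those of P2ry12 in the same library, which removes depth and scaling. If all fell alike, each ratio would be the same on PLX3397 as on vehicle. The log2 ratio of Sall1 to P2ry12 was -0.37, -0.27 and -0.28 in wild type on vehicle and 5.08, 4.29 and 5.002 on PLX3397, and 0.44, 0.16 and 0.09 against 5.31, 5.10 and 3.98 in R6/2. Averaged over the genotypes it rose 28.5-fold (exact permutation test within genotype, two-sided p = 0.005, the smallest that 400 arrangements allow; adjusted over 8 ratios 0.0133). The ratio of Aif1 rose 26.5-fold and that of Olfml3 7.05-fold, with the same permutation p of 0.005 and adjusted p of 0.0133. For these 3 genes every treated library lay above every vehicle library of its genotype.

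The ratios of the other genes moved less and on few reads. Averaged over the genotypes, P2ry13 fell against P2ry12 by 1.18 on the log2 scale (exact permutation p = 0.02, adjusted 0.04). Its change was -0.34 in wild type and -2.02 in R6/2, where PLX3397 library 1 held 0 reads of it (log2 ratio -5.13). The call was lost with Tmem119 as the reference (adjusted permutation p = 0.153) or with 2 reads added in place of 0.5 (0.104). It was also lost without any 1 of 6 libraries (0.05 to 0.133). These were vehicle 2 and PLX3397 1 and 3 of wild type, and vehicle 1, 2 and 3 of R6/2. Cx3cr1 had a change of -1.23 and Siglech of -1.85, with adjusted permutation p of 0.064 and 0.0667. In wild type and R6/2 the changes were -0.19 and -2.27 for Cx3cr1, and -0.75 and -2.95 for Siglech. They were called without wild-type PLX3397 library 1 (0.03, Cx3cr1) or 2 (0.008, Siglech). Gpr34 (-0.46) and Tmem119 (-0.24) had adjusted permutation p of 0.389 and 0.57. Gpr34 moved by 0.06 in wild type and by -0.98 in R6/2, and Tmem119 by 0.94 and by -1.42.

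**Figure D3:**
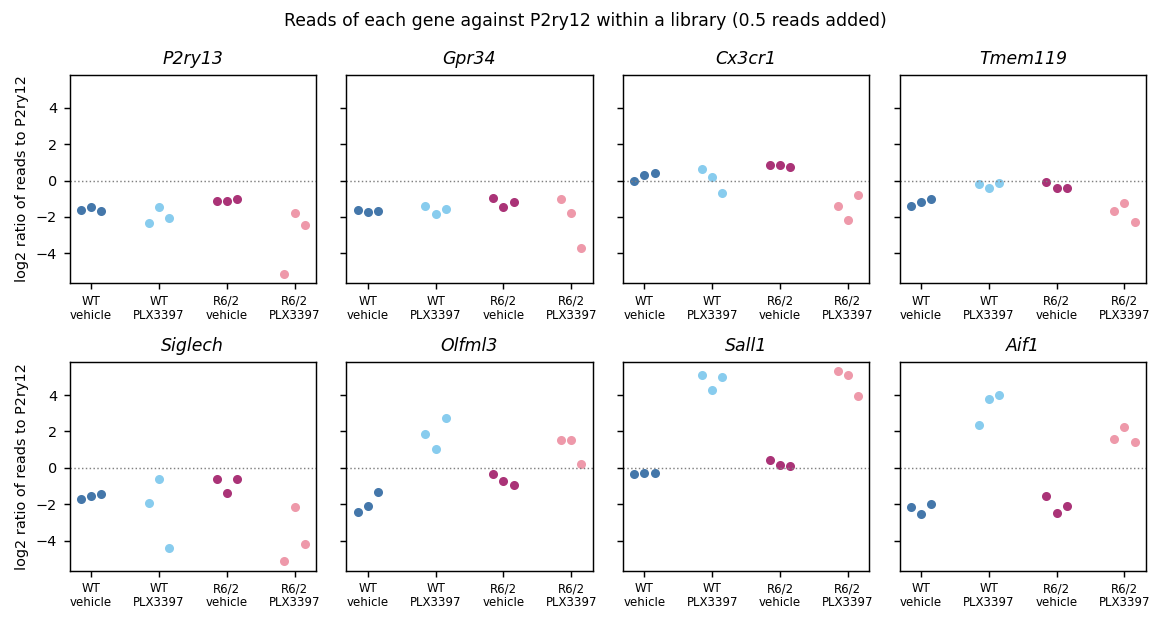
Log2 ratio of the reads of each gene to those of P2ry12 in the same library, with 0.5 reads added to both (points are the 3 libraries of each group). Sall1, Aif1 and Olfml3 move up on PLX3397 in both genotypes, by 4.83, 4.73 and 2.82 log2 units on average, while the treated libraries of P2ry13, Gpr34, Cx3cr1 and Siglech spread widely.

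Between R6/2 and wild-type mice on vehicle, none of the 9 genes was called, beside 2.11% of all genes, 1.49% lower and 0.617% higher in R6/2 (limma). Limma-voom also called 0 of the 9, beside 145 of all 15397 genes. Of the 9, 1 (Olfml3) had an unadjusted limma p under 0.05, beside 3476 of all 15397 genes. P2ry12 had a log2 difference of -0.70 ± 0.39 (limma adjusted p = 0.296) and Olfml3 one of 0.57 ± 0.23 (0.174). The other 7 genes had log2 differences of -0.50 (Aif1) to 0.18 (Tmem119). The fixed list of 50 other microglial genes also had 0 calls in this comparison by limma and by limma-voom. Of these 50, 4 had an unadjusted limma p under 0.05, beside the same 3476 of all genes.

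On PLX3397, 2 of the 9 genes were lower in R6/2 than in wild type and none was higher, beside 35% of all genes called, 17.9% lower and 17.1% higher. Tmem119 was 2.00-fold lower, with a log2 difference of -0.999 ± 0.26 (limma adjusted p = 0.0140), and Aif1 2.47-fold lower, with -1.30 ± 0.43 (adjusted p = 0.0356). The share of 2 in 9 lies near that of all genes called lower. The call on Tmem119 was kept under 17 of 22 alternatives and that on Aif1 under 13, with the adjusted p reaching 0.302 and 0.512 without the 2 R6/2 PLX3397 libraries low in Slc17a7. Without R6/2 PLX3397 library 1 the calls were lost as well (0.0528 and 0.129), and that on Aif1 also without library 2 (0.0891) or without wild-type PLX3397 library 2 (0.122) or 3 (0.0750). The other 7 genes were not called; P2ry12 (0.29) and Sall1 (0.31) had positive differences and Cx3cr1 (-1.001), Siglech (-0.84), Olfml3 (-0.43), P2ry13 (-0.33) and Gpr34 (-0.17) negative ones. Leaving out 1 library brought a call on Cx3cr1 (R6/2 PLX3397 3, adjusted p = 0.0241), Siglech (wild-type PLX3397 3, 0.0343), Olfml3 (wild-type PLX3397 2, 0.0362) or Sall1 (wild-type PLX3397 1, 0.0474).

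Whether the drug's change itself differed between genotypes was tested as an interaction, the change in R6/2 minus that in wild type. Tmem119 was called, with a deeper fall in R6/2 (-1.18 ± 0.37, limma adjusted p = 0.0489), beside 17% of all genes called, 7.71% lower and 9.29% higher. The share of 1 in 9 lies near that of all genes called. The call was kept under 5 of 21 alternatives, with adjusted p from 0.0278 to 0.525, and was lost on leaving out any 1 of 10 of the 12 libraries (0.0648 to 0.103), all but PLX3397 library 3 of each genotype. Olfml3 had a nearly equal difference (-1.01 ± 0.32, adjusted p = 0.0525) that was called under 2 of 21, after leaving out library 3 of wild type on vehicle (0.0432) or library 2 of wild type on PLX3397 (0.0286). For the remaining genes the differences ran from -0.88 (Cx3cr1) to 1.00 (P2ry12, adjusted p = 0.207).

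The interaction moved with the base composition of the transcripts. Over 14305 genes with a known GC content the Spearman correlation of the interaction with GC was -0.559, and over the 9 genes it was -0.667; both describe these libraries only, since the genes share them. For R6/2 against wild type the correlation was 0.285 over all genes and 0.683 over the 9 on vehicle, and -0.458 and -0.367 on PLX3397. P2ry12 and Gpr34, whose transcripts have 38.6% and 37.1% GC, had differences of 1.00 and 0.05, and Tmem119, with 59.0% GC, one of -1.18. After a trend in GC and length was removed from each library, the interaction was -0.42 for Tmem119 (limma adjusted p = 0.525), 0.14 for P2ry12 and -0.93 for Gpr34, while Olfml3 had -1.03 (adjusted p = 0.0761). The GC value of Olfml3 (52.4%) comes from a GENCODE transcript of 5465 bases, longer than the RefSeq span given above, so its corrected value rests on another gene model. The lower level on PLX3397 in R6/2 was then -0.42 for Tmem119 (adjusted p = 0.247) and -0.80 for Aif1 (adjusted p = 0.126). The calls within each genotype for the 7 most depleted genes were kept after this step, and so was the wild-type call on Sall1 (adjusted p = 0.0368).

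**Figure D4:**
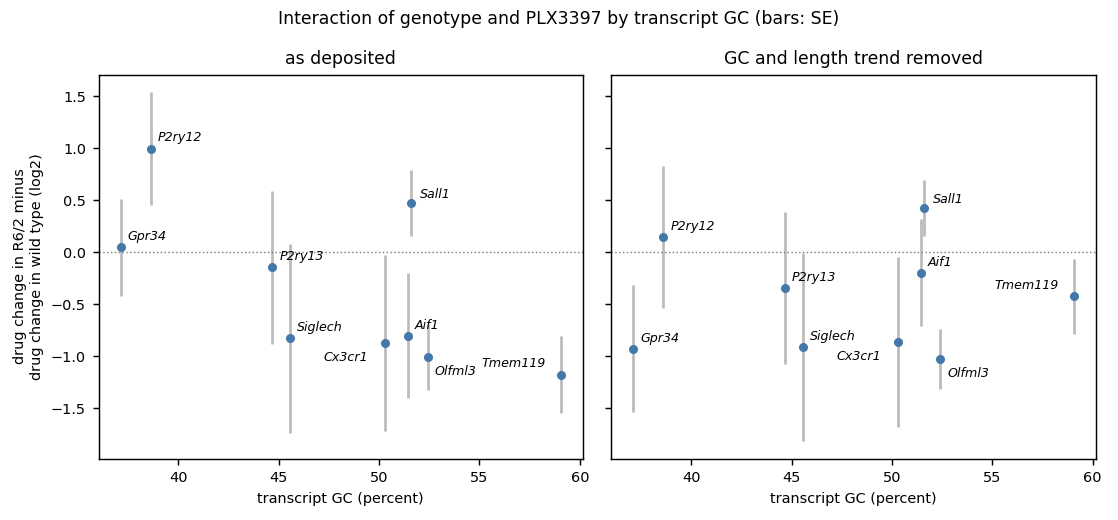
Interaction of genotype and PLX3397 (log2, points, with SE as bars) of each gene against the GC content of its longest annotated transcript, from the values as deposited (left) and after removal of a GC and length trend (right). On the left P2ry12 lies at 1.00 and Tmem119 at -1.18; on the right they lie at 0.14 and -0.42, and Olfml3 lies at -1.03.

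Other microglial genes gave the scale for these losses. Of 53 genes in 2 fixed lists 50 were measured; 35 were called lower on PLX3397 in wild type and 36 in R6/2, and 0 higher, with a median log2 change of -2.47 and -3.00. Of the 50, 19 were left at under 5% in wild type and 21 in R6/2, and 13 and 9 kept 50% or more. The median share left was 18.4% (range 0.698% to 96.2%) in wild type and 10.7% (0.870% to 153%) in R6/2. Among the 9 identity genes the median was 1.75% and 1.57%.

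Of 38 surface receptors and enzymes, 31 were lower in wild type and 33 in R6/2. Selplg, the selectin ligand, changed by -4.76 ± 0.33 (log2; limma adjusted p = 3.25e-05), Fcer1g, a signalling chain of Fc receptors, by -4.29, and Cd33, a sialic acid-binding receptor, by -5.64 in wild type. Tgfbr1, a TGF-beta receptor, was left at 21.6% and 47.9%. Cst3, the secreted protease inhibitor cystatin C also made by astrocytes, was left at 96.2% and 50.02%. Rgs10, a regulator of G protein signalling, was left at 88.4% ± 47.2 and 102% ± 49.96 (SD, n = 3). Its wild-type share came to 61.2% without PLX3397 library 2, and its R6/2 share ran from 78.2% to 128% without 1 PLX3397 library.

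Of 12 transcription factors other than Sall1, 4 were lower in wild type and 3 in R6/2. Spi1, which encodes PU.1, was left at 1.21% in wild type (counting interval 0.136% to 4.07%) and 2.55% in R6/2 (0.913% to 5.42%) and fell by 4.64 ± 0.54 on the log2 scale in wild type (limma adjusted p = 0.000972). Its 2 treated wild-type reads all lay in library 1 and its 6 treated R6/2 reads all in library 3, so that the share is 0 without either. Irf5, an interferon regulatory factor, fell by 3.54 and Maf by 1.60 in wild type. Bhlhe41 was left at 93.0% and 124%, and Mef2a at 38.5% and 153%; Mef2a and Bhlhe41 are also expressed by neurons. Mef2a was called lower in wild type (adjusted p = 0.0463) under 7 of 22 alternatives only.

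**Figure D5:**
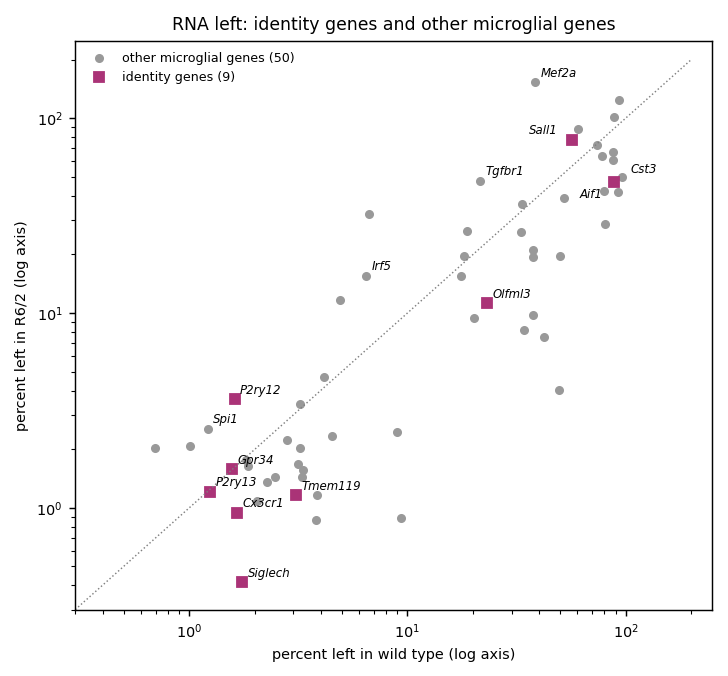
Percent of the vehicle mean left on PLX3397 in wild type (x) and R6/2 (y), both on log axes, for the 9 identity genes (squares) and 50 other microglial genes (circles), with the line of equality. The 6 most depleted identity genes lie at under 5% on both axes beside Spi1 at 1.21% and 2.55%, and Aif1 lies at 88.1% and 47.3% beside Cst3.

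Genes of the signals known to hold the identity genes on were mostly not called. Of 13 measured, 2 fell in each genotype and 0 rose, beside 8.3% of all genes lower in wild type and 1.04% in R6/2. They were the same pair, the ligand Tgfb1 and the receptor Tgfbr1. Tgfbr1 is also 1 of the 50 other microglial genes counted above. Tgfb1 changed by -1.26 ± 0.29 (log2; limma adjusted p = 0.0211) in wild type and by -1.98 ± 0.29 (adjusted p = 0.00429) in R6/2. Il34, which encodes a neuronal ligand of CSF1R, had changes of 0.60 in wild type (adjusted p = 0.0558) and -0.52 in R6/2 (adjusted p = 0.306), neither called. The difference between these, -1.12 ± 0.27, was called (limma interaction, adjusted p = 0.0227, kept under 15 of 21 alternatives). Over all genes the interaction also moved with transcript GC, as given above. Over 22 alternatives the wild-type change of Il34 ran from 0.12 to 0.69 and was called under 4. In the interaction 2 of the 13 were lower (Il34 and Tgfb3) and 1 higher (Tgfbr1), beside 7.71% of all genes lower and 9.29% higher.

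Over the 12 libraries, the genes whose log2 level followed the mean of the 9 genes most closely were Ctss, Hcls1, Fcer1g, Cd300c2, Vav1, Csf1r, Itgam, Fcgr3, Cd84 and Gm10790, with Pearson r of 0.994 to 0.990. Of these 10, 5 were on the fixed microglial lists. Each of the 9 genes was also set against the mean of the other 8. The r was 0.981 to 0.995 for the 6 most depleted genes, 0.949 for Olfml3, 0.757 for Sall1 and 0.526 for Aif1. All these values share the same 12 libraries and are led by the gap between vehicle and PLX3397.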

How the data were processed

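Striatal RNA of 12 mice was sequenced. The alignment with STAR, the counting with featureCounts on mm10 and the use of edgeR and limma are given without versions in the submitters' processing notes. The authors deposited values named RPKM, but the values are log2 CPM with a prior of 1.65 to 2.41 reads: 100% of them gave whole reads within 0.1 read once the prior was removed. The plan had foreseen linear values; the deposited logs were used as they are.

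The log2 values of 15397 genes were fitted in limma 3.58.1 (R 4.3.3) with an intensity trend and group means over 12 libraries. A call is an adjusted p under 0.05 (Benjamini-Hochberg over all genes). RNA left is CPM from recovered reads as a percent of the vehicle mean of the genotype. Ratios to P2ry12 used 0.5 added reads and an exact permutation test within genotype. The script was tested on simulated data. Positions came from RefSeq (15078 genes matched), and GC and length from GENCODE M21 transcripts (14305 genes, 92.9%).

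The 9 genes, the lists and the alternatives were chosen with earlier results of these data known. Named genes are these 9 and, per microglial list, up to 6 with the smallest p in wild type and up to 4 with the most RNA left; other list members and genes were named after their values were seen. Same-numbered libraries deviated with correlations of -0.321 to 0.396, which cannot decide whether the numbers pair the mice. The main fit did not treat them as pairs. Replicates correlated at r = 0.938 to 0.986 and differed by more than counting noise. Tables and plots used Python 3.11.15, scipy 1.17.1 and matplotlib 3.10.9. Some genes of the lists are withheld and not reported here by name.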

Additional observations from a re-analysis of the deposited data

Results flagged for a closer look

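The change of Tmem119 on PLX3397 was called as different between the genotypes in a test of the difference itself, though most alternatives lost the call. Its log2 change was -4.87 in wild type and -6.05 in R6/2, a difference of -1.18 ± 0.37 (limma interaction, adjusted p = 0.0489), with 41 treated reads in wild type and 20 in R6/2. The limma adjusted p was between 0.0278 and 0.525 over 21 alternatives, of which 5 kept the call. Of the 9 genes 1 was called in this test, beside 17% of all genes (7.71% lower), so the share of 1 in 9 lies near that of all genes. With a GC and length trend removed the difference was -0.42 (limma adjusted p = 0.525).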

How the results depend on the processing

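In each genotype, 7 of the genes (all but Sall1 and Aif1) kept their direction and call on PLX3397 under all 22 alternatives, while RNA left moved by over 1.5 times, up to 2.77 (Siglech in wild type), under some for P2ry12, P2ry13, Cx3cr1 and Siglech. Depth limits the 6 most depleted genes, with 0 to 45 reads per treated library. Where values changed, the cause was not tested.

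The count of all genes called was far less stable. For the drug in wild type it was 228 to 2716 without 1 library, 351 with 2 groups alone, 860 with GC and length removed, 3560 without the choroid-high libraries (wild-type PLX3397 1 and R6/2 vehicle 1) and 1317 without R6/2 PLX3397 libraries 1 and 2, and Aif1 changed by -0.70 to 0.11 without 1 library and 0.11 without the choroid-high libraries. For the drug in R6/2 it was 125 to 381 without 1 library, 98 with 2 groups alone, 58 without R6/2 PLX3397 libraries 1 and 2 and 108 with a cortical covariate. For genotype on vehicle it was 1 to 561 without 1 library, 145 with voom, 602 with GC removed, 103 without choroid-high libraries and 109 with the covariate; Siglech ran from -0.28 to 0.30 without 1 library and was 0.043 with the covariate, and Gpr34 was 0.28 with GC removed.

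For genotype on PLX3397, 0 to 3 of the genes were lower and 0 to 1 higher without 1 library, and 3383 to 5630 genes were called; 0 were lower with 2 groups alone (2934 called), with GC removed or without R6/2 PLX3397 libraries 1 and 2 (237 called), and 1 with voom or the covariate. P2ry12 ran from -0.18 to 0.56, P2ry13 from -0.83 to 0.29 and Gpr34 from -0.44 to 0.023 without 1 library; P2ry12 was -0.17 with GC removed, and P2ry13 was 0.67 and Cx3cr1 0.44 without R6/2 PLX3397 libraries 1 and 2. For the interaction, 0 to 1 were lower without 1 library (537 to 3532 genes called) and 0 with voom, GC removed (570 called), without choroid-high libraries, without R6/2 PLX3397 libraries 1 and 2 (0 called by limma, with 2599 at an unadjusted p under 0.05) or with the covariate (940 called). P2ry13 ran from -0.65 to 0.48 and Gpr34 from -0.22 to 0.24 without 1 library; without R6/2 PLX3397 libraries 1 and 2, P2ry13 was 0.85, Gpr34 -0.34 and Cx3cr1 0.57; with the covariate P2ry13 was 0.32 and Gpr34 -0.31; Gpr34 was also -0.0081 with a prior of 0.5 reads, -0.040 with voom and -0.93 with GC removed.

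With the replicate number as a block, 1110 genes were called for the drug in wild type, 40 for genotype on vehicle and 1432 for the interaction; 1 of the 9 genes was lower for genotype on PLX3397 (Aif1, adjusted p = 0.0542, was lost) and 0 for the interaction (Tmem119, 0.0907). The block changed no other call on the 9 genes. The exclusion of choroid-high or cortex-low libraries and the covariate were chosen after seeing the data.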
